A study of Drosophila melanogaster with 12 samples.

Results

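A nucleosome block kept in both cell types was defined here as a stretch of the genome in which at least 4 consecutive nucleosomes occupied nearly the same positions in glial cells and in neural progenitor cells of the Drosophila melanogaster embryo. The blocks were selected on the measured positions themselves. For each nucleosome of the progenitor map, the absolute difference between its start and the closest start of the glia map on the same chromosome arm was taken. A block is a maximal run of at least 4 consecutive progenitor nucleosomes, with neighbouring starts at most 500 bp apart, in which every difference was 10 bp or less. This gave 4213 blocks with 19256 nucleosomes, out of 522119 nucleosomes in the progenitor map. The glia map held 510664 nucleosomes.

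Both maps come from micrococcal nuclease sequencing (MNase-seq), in which the enzyme digests the linker DNA between nucleosomes and the protected DNA is sequenced. Nuclei were isolated by INTACT, an affinity method that captures nuclei carrying a tagged envelope protein. Glia, labelled as late glial cells, came from embryos of 12 to 14 h after egg laying. In that line repo-Gal4 drives the transgene UAS-3xFLAG-blrp-mCherry-RanGap, with Tm3B given after the slash. The progenitor cells, called GNP (Gcm-expressed neural progenitor) and labelled GB or early glial cells, came from embryos of 5 to 7 h. Their line has gcm-Gal4 with UAS-mCDGFP and cyo on the label, together with the same RanGap transgene. Embryos of both lines were fixed with formaldehyde, and each sample pools many embryos. The repo driver marks glia, whereas gcm is also active in precursors of hemocytes, the blood cells of the fly. Cell type, embryo age and fly line differ together and cannot be told apart. The study reported high purity for both sets of nuclei. In its GNP data, genes specific to neural progenitors were expressed more than genes of the hemocyte lineage. The files used here hold positions and no expression, so the identity of the cells could not be checked against markers here.

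With 1 library for each cell type, no difference could be checked against replicates, and no test between the cell types was possible. Intervals of shares are 95% Wilson intervals and cover counting error only. How many reads each map rests on is unknown.

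The nucleosome is the repeating unit of chromatin, and its position decides which bases of the DNA are exposed to transcription factors. In many genes nucleosomes line up in regular arrays beside a depleted region at the promoter, and chromatin remodelers of the ISWI and CHD families space them evenly. The underlying DNA also favours some positions, so that a nucleosome may sit at the same place in different cell types. A map made from many cells gives the preferred position over the population, not the position in each cell.

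The most extended block lay on arm 2R, from 1164982 to 1167521 of the dm3 build, and held 12 nucleosomes in 2539 bp. Along this block the differences, glia minus GNP, were -5, -7, 3, -5, 2, 5, -5, 1, 9, 0, 3 and -1 bp. Of its nucleosomes, 6 lay at a higher coordinate in glia, 5 at a lower one and 1 at the same start. Whether the differences change along the block was not tested. The distances between neighbouring starts were 182, 246, 254, 168, 307, 207, 196, 236, 219, 210 and 172 bp in glia, against 184, 236, 262, 161, 304, 217, 190, 228, 228, 207 and 176 bp in GNP. The spacing was uneven in both maps. Since every start was held within 10 bp by the rule, a distance could differ by at most 20 bp between the maps. The nucleosome before the block differed from the closest glia start by -136 bp, and the nucleosome after it by -11 bp, which is 1 bp outside the limit.

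The other block of 12 nucleosomes lay on arm 3R, from 23457666 to 23460081. Its differences were 10, 9, -2, -9, 5, -1, 10, 6, 6, -5, -2 and 4 bp, with a mean absolute difference of 5.75 bp. This block used the whole width of the limit, and 7 of its nucleosomes lay at a higher coordinate in glia. Next was a block of 11 nucleosomes on arm 3L, from 643874 to 646213. Its differences were -9, 1, -1, -10, 4, 7, -9, -8, 0, 1 and 0 bp. Inside it, GNP had stretches of 150 bp or more without a nucleosome at 2 places, and no additional nucleosome was called there in glia.

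A block of 10 nucleosomes on arm 2L, from 22396112 to 22398301, included neighbours 401 bp and 371 bp apart in GNP. Their glia partners were 402 bp and 371 bp apart, and both stretches stayed without a nucleosome in glia. The distances of this block had an SD of 95.3 bp in glia and 94.5 bp in GNP. By contrast, a block of 10 nucleosomes on arm 3R, from 362581 to 364434, was among the more even ones. Its distances ranged from 165 to 235 bp in GNP, and their SD was 27.3 bp in glia and 25.7 bp in GNP. Long blocks were therefore found on both even and uneven spacing.

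**Figure D1:**
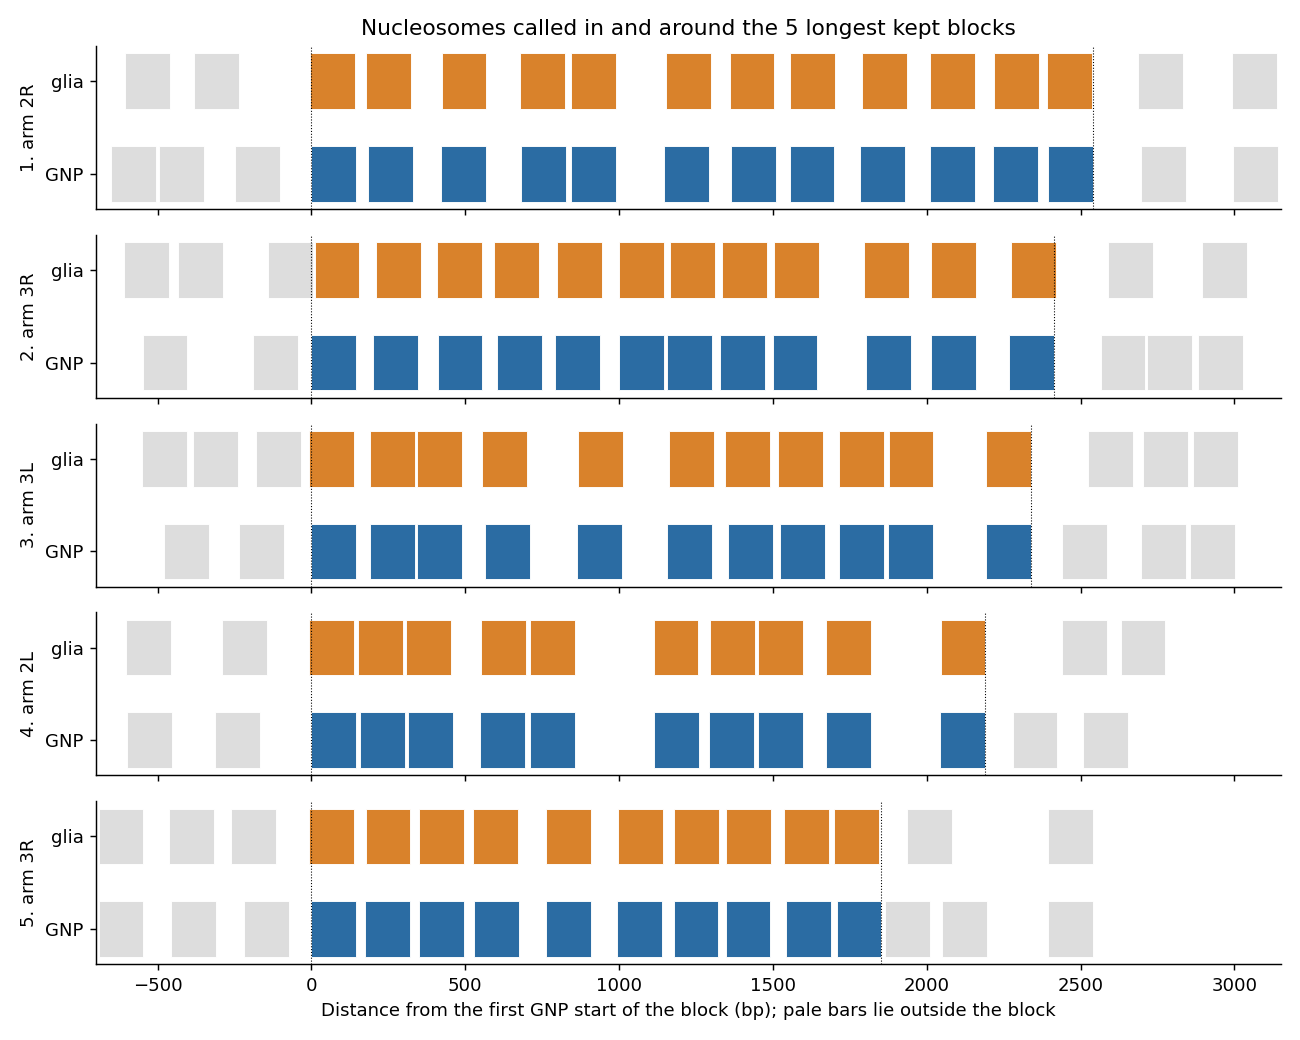
Nucleosomes called in glia (orange, upper row) and GNP (blue, lower row) in the 5 longest blocks, drawn to scale as bars of 146 bp against the distance in bp from the first GNP start of the block. Dotted lines mark the block's ends in GNP and pale bars the neighbours outside it. The coloured bars of both rows stand above each other within 10 bp, while the pale bars beside them often do not.

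On the remaining arms the longest blocks were shorter. Arm X had a block of 9 nucleosomes from 21632297 to 21634547, with differences from -7 to 5 bp and 4 stretches of at least 150 bp without a GNP nucleosome. Inside this block 1 additional nucleosome was called in glia. On the small arm 4, which is largely heterochromatic, the longest block held 6 nucleosomes from 613272 to 614610. The differences there were 0, 0, 0, 0, 5 and -5 bp. Its first 4 nucleosomes thus had the same start in both maps. Among the 561 blocks of at least 6 nucleosomes, the smallest mean absolute difference was 1.33 bp, in a block on 2L from 10447055 to 10448234 with differences of 0, -2, 1, 2, 2 and 1 bp. A single block of all 4213, chosen after its values were seen, had the same start for every nucleosome. It lay on 3R from 18928182 to 18929058 with starts at 18928182, 18928362, 18928618 and 18928912.

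Most blocks were short. Of all blocks, 2697 (64.0%) held 4 nucleosomes, 955 (22.7%) held 5 and 361 (8.57%) held 6, and 87 held 8 or more. The median span was 846 bp, with quartiles of 742 and 989 bp and a range from 620 to 2539 bp. Together the blocks spanned 3.80 Mb, which is 3.16% of the 120.3 Mb between the outermost calls of the 6 arms. They held 3.69% of the GNP nucleosomes. For comparison, 28.7% of all GNP nucleosomes had a glia start within 10 bp, and most of these lay outside the blocks, in 92988 shorter runs of 1 to 3 nucleosomes.

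The length of the runs raises the question of whether agreement at a nucleosome extends to its neighbours. Among runs that had reached 1 nucleosome, 34.8% (34.5% to 35.1%) went on to a further matched nucleosome. This share was 35.1% (34.2% to 35.9%) for runs that had reached 3 nucleosomes, 36.0% (34.6% to 37.4%) for those that had reached 4 and 35.7% (31.8% to 39.7%) for those that had reached 6. The share was above the 28.7% of all GNP nucleosomes, but it did not grow with the length of the run, and the intervals for runs of 3 to 6 nucleosomes overlap. Only 200 runs reached 7 nucleosomes, of which 43.5% (36.8% to 50.4%) went on. Of the 87 runs that reached 8, 29.9% (21.3% to 40.2%) went on. A nucleosome that followed a matched neighbour was itself matched in 35.3% of cases, and one that followed an unmatched neighbour in 25.9%. These shares use the same positions that chose the blocks, and are a description.

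**Figure D2:**
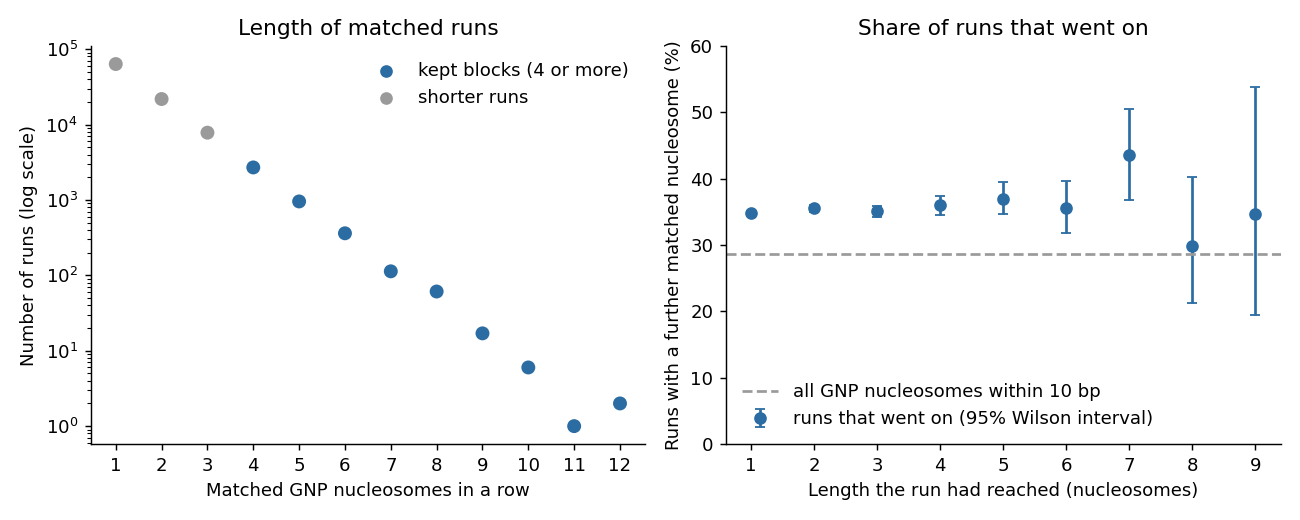
Left, number of runs (log scale) against the number of matched GNP nucleosomes in a row, with kept blocks in blue and shorter runs in grey. Right, share of runs (%) that had a further matched nucleosome against the length reached, with 95% Wilson intervals and, as a dashed line, the 28.7% of all GNP nucleosomes within 10 bp. The numbers fall on a nearly straight line from 63411 runs of 1 to 17 runs of 9, and the shares stay near 35% up to 6 nucleosomes.

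How often a match was followed by another differed with the distance between the neighbours. After a matched nucleosome, the next was matched in 41.8% (41.4% to 42.2%) of cases when it lay 160 to 200 bp away. At 147 to 159 bp the share was 29.6% (28.8% to 30.5%), at 201 to 295 bp it was 31.7% (31.3% to 32.1%), and at 296 to 500 bp it was 27.9% (27.2% to 28.5%). After an unmatched nucleosome the order was different, with 21.2% (20.8% to 21.6%) at 147 to 159 bp, 23.8% (23.6% to 24.1%) at 160 to 200 bp and 30.1% (29.7% to 30.6%) at 296 to 500 bp. Neighbours 160 to 200 bp apart were thus matched together, or unmatched together, more often than neighbours farther apart. A further match needs a glia start at nearly the same distance, and glia distances were most frequent near 177 bp. The glia spacing therefore takes part in these shares, and its part was not tested.

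Within the blocks the size of the differences was like that of other matched nucleosomes. Of the block nucleosomes, 1210 (6.28%) had the same start in both maps, against 5.999% of the 130362 matched nucleosomes in runs of 1 to 3. The mean absolute difference was 4.55 bp in blocks and 4.64 bp in the shorter runs. Nucleosomes at the ends of a block had a mean absolute difference of 4.58 bp, and those inside it 4.52 bp. Both sets are limited to differences of 0 to 10 bp by the rule, which largely sets these means. At the edge of the limit, 1172 block nucleosomes differed by exactly 10 bp, and 1047 blocks (24.9%) had a largest difference of 10 bp. Just outside it, 267 blocks had a neighbouring nucleosome at 11 bp. The 2697 blocks of 4 stand beside 7797 runs of 3, which were left out. The limit on neighbour distance had little effect, since at 35 block ends a matched nucleosome lay beyond a distance over 500 bp.

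Over all blocks together, the differences had no common direction. Glia starts lay at a higher coordinate for 9114 block nucleosomes (47.3%) and at a lower one for 8932 (46.4%). In 344 blocks (8.17%) every nucleosome was displaced to 1 side, to higher coordinates in 180 and to lower ones in 164. The pooled SD of the signed differences within blocks was 5.37 bp, and the SD of the block means was 2.65 bp. Blocks with no nucleosome at exactly the same start numbered 3135 (74.4%). Most blocks thus had differences of both signs. Whether nucleosomes of the same block were displaced together more than nucleosomes of different blocks was not tested. In 553 blocks every difference was 5 bp or less.

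The spacing of the nucleosomes was only limited by the rule to 500 bp, and it is described next. Neighbouring starts in blocks were a median of 194 bp apart in GNP (quartiles 174 and 233 bp), against 200 bp (174 and 250 bp) for all other GNP neighbours up to 500 bp. Distances of 160 to 200 bp, close to the nucleosome repeat, made up 49.5% (48.7% to 50.3%) of those in blocks and 40.6% (40.4% to 40.7%) of the others. The median was lower in blocks than elsewhere on 6 of 6 arms. The share of 160 to 200 bp was higher in blocks on 5 of 6 arms. The exception was arm 4, with 34.6% in blocks and 35.5% elsewhere, where only 36 blocks were found.

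This spacing was not peculiar to runs of 4 or more. In matched runs of 2 or 3 nucleosomes the median was also 194 bp, and 49.2% (48.7% to 49.7%) of distances were 160 to 200 bp. In runs of at least 4 consecutive GNP nucleosomes that were all more than 10 bp from a glia start, the median was 198 bp and the share 41.8% (41.6% to 42.0%). There were 39080 such unmatched runs with 267047 nucleosomes. Over all arms together, neighbouring matched nucleosomes thus had similar spacing in blocks and in shorter runs.

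In glia the partners of neighbouring block nucleosomes were a median of 195 bp apart (quartiles 175 and 233 bp), and 48.2% (47.4% to 49.0%) of these distances were 160 to 200 bp. These distances pass over glia nucleosomes called between the partners. With those nucleosomes included, the median in blocks was 192 bp and the share 50.15% (49.4% to 50.9%). All glia neighbours up to 500 bp had a median of 209 bp and a share of 35.2% (35.1% to 35.4%). The blocks keep the GNP spacing in glia because the rule holds both maps within 10 bp, so this closeness of 195 and 194 bp is fixed by the selection. The direction of the small changes is not fixed by it. Of the 15043 distances in blocks, 7230 (48.1%) were wider in glia, 7024 (46.7%) were narrower and 789 (5.24%) were equal, with a mean change of 0.0503 bp and an SD of 7.52 bp. Whole blocks were wider in glia in 2073 cases (49.2%) and narrower in 1935 (45.9%), with a median change of 0 bp. The blocks thus showed no common widening or narrowing in glia.

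**Figure D3:**
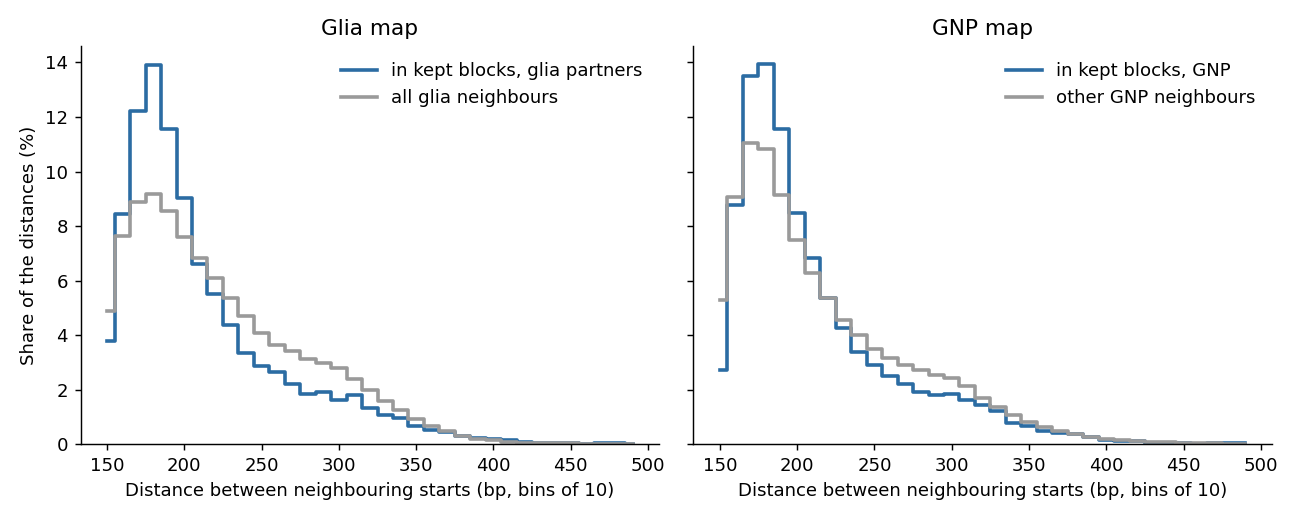
Share of distances between neighbouring starts (%) in bins of 10 bp, in the glia map (left) and the GNP map (right). Blue lines show distances in kept blocks, which in glia are those between the partners of GNP neighbours. Grey lines show all glia neighbours (left) or the other GNP neighbours (right). In both maps the blue line is higher around 180 bp and lower at most distances above about 220 bp.

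Regular spacing in every step was rare even in blocks. In glia, 368 blocks (8.73%) had all their distances between 160 and 200 bp, and in GNP 426 blocks (10.1%) did, 266 of them in both maps. Of the blocks with at least 6 nucleosomes, 23 of 561 had this spacing in GNP. The mean GNP distance of a block was under 180 bp in 498 blocks (11.8%), 180 to under 200 bp in 1218 (28.9%), 200 to under 220 bp in 1048 (24.9%) and 220 bp or more in 1449 (34.4%). The median SD of the distances within a block was 37.9 bp in glia and 38.5 bp in GNP. Kept positions therefore covered tight arrays as well as widely and irregularly spaced nucleosomes.

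The rule follows consecutive nucleosomes in GNP only, and does not exclude nucleosomes in glia that have no GNP partner. In 3753 blocks (89.1%, 88.1% to 90.0%) the glia partners were also consecutive. In the other 460 blocks (10.9%) nucleosomes were called between the partners in glia, 1 in 445 blocks and 2 in 15. Glia starts were at least 147 bp apart, so an additional nucleosome fitted only between widely spaced partners. Only 1240 blocks (29.4%) had a GNP gap, as defined below. The 89.1% therefore comes largely from blocks with little room for a further nucleosome. Also, 2 nucleosomes of a block could not share a glia partner, because neighbouring GNP starts were at least 147 bp apart. By the rule a block cannot contain a GNP nucleosome that lacks a glia partner, so the opposite case was not open to observation.

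Stretches of the GNP map that are free of nucleosomes were examined next. A gap was taken as at least 150 bp between the end of a nucleosome and the start of its neighbour, with starts no more than 500 bp apart. The study used this length for depleted regions in enhancers. Blocks contained 1447 GNP gaps, which were 9.62% (9.16% to 10.1%) of the distances in blocks, compared with 11.8% of all GNP neighbour distances. In matched runs of 2 or 3 nucleosomes the share was 9.52%, so the low share was not peculiar to blocks. It was 11.02% in unmatched runs of at least 4. The rule takes part in the share of matched runs, since matched neighbours need glia starts at nearly the same distance. The share in blocks was below that of all distances on 5 of 6 arms. On arm 4 it was higher, with 19.7% in blocks and 14.8% over all distances. At least 1 gap was present in 1240 blocks (29.4%).

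Of the gaps inside blocks, 473 (32.7%, 30.3% to 35.2%) held the centre of a glia nucleosome, and 974 (67.3%) were free of nucleosome centres in glia as well. Over all 61357 GNP gaps, 67.9% (67.5% to 68.3%) held a glia centre. In gaps between matched neighbours outside the blocks the share was 33.4% (31.9% to 35.0%), and in gaps whose neighbours were both unmatched it was 75.4% (74.9% to 75.9%). For longer gaps of 200 bp or more, 63.4% (58.8% to 67.8%) of those inside blocks held a glia centre, and 65.4% (62.4% to 68.3%) of those between matched neighbours outside blocks. Gaps with matched nucleosomes on both sides thus had similar shares inside and outside the blocks, and those of 200 bp or more mostly held a glia centre. The share over all GNP gaps of 200 bp or more was not computed, so these shares have no background. The rule takes part in the low share of the shorter gaps, since matched neighbours leave a glia nucleosome little room.

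**Figure D4:**
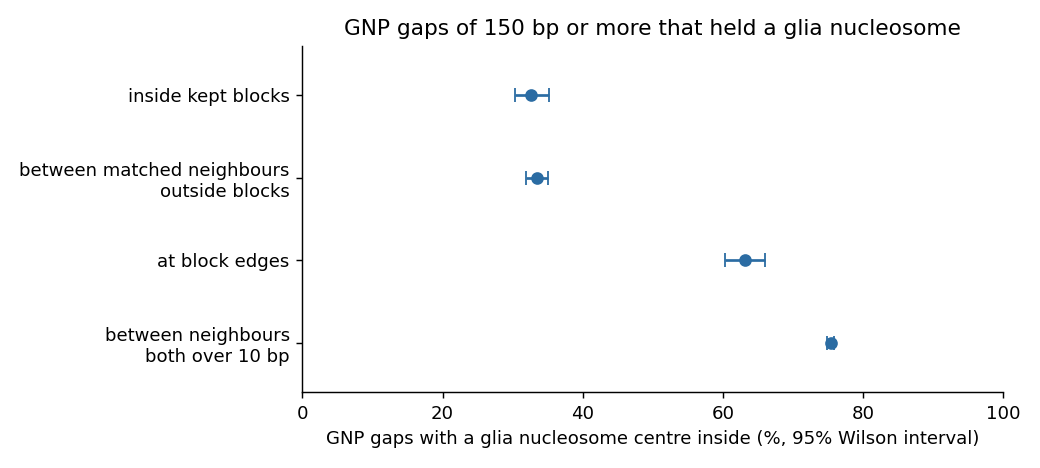
Share of GNP gaps of 150 bp or more (%) that held the centre of a glia nucleosome, with 95% Wilson intervals, for 1447 gaps inside kept blocks, 3559 between matched neighbours outside blocks, 1112 at block edges and 30318 between neighbours both more than 10 bp from a glia start. The shares were 32.7%, 33.4%, 63.2% and 75.4%.

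The ends of the blocks were then examined, because arrays of fixed nucleosomes often start beside a depleted region. In GNP, 1112 of 8426 block ends (13.2%, 12.5% to 13.9%) adjoined a gap, compared with 9.62% of the distances inside blocks and 11.8% of all GNP distances. In glia, 1390 of 8426 ends (16.5%, 15.7% to 17.3%) adjoined a gap, against 12.7% of all glia distances. Gaps at both ends were found in 88 blocks (2.09%) in GNP. A similar share of the ends of shorter matched runs adjoined a GNP gap, 13.4% (13.2% to 13.6%), and so did 13.4% (13.1% to 13.6%) of the ends of unmatched runs. In the GNP map the ends of kept blocks were thus not set apart by gaps from other changes between matched and unmatched nucleosomes. The ends of other runs were not examined in the glia map. A distance over 500 bp to the next nucleosome was found at 82 block ends (0.973%, 0.785% to 1.21%) and made up 0.508% of all GNP distances.

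The first nucleosome outside a block lies beyond the limit by the rule, with the 35 exceptions given above. Among 8391 such nucleosomes, the median difference from the closest glia start was 54 bp, against 64 bp for all 372501 GNP nucleosomes over 10 bp. Differences of 11 to 15 bp made up 13.2% (12.5% to 14.0%) of them and 9.87% (9.77% to 9.96%) of all unmatched nucleosomes. Differences of 61 to 100 bp, around the middle between neighbouring nucleosomes, made up 29.6% (28.6% to 30.6%) and 37.8% (37.7% to 38.0%). A difference of 126 bp or more, which leaves little overlap between the GNP and the glia nucleosome, was found for 8.16% (7.60% to 8.77%) next to blocks and 6.26% (6.19% to 6.34%) of all unmatched ones. Both small and very large differences were therefore more frequent beside blocks than among all unmatched nucleosomes, and differences of 61 to 100 bp less frequent. The first nucleosomes beside shorter matched runs were not examined. Whether this is particular to blocks is therefore unknown.

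The nucleosomes farther out were examined in the same way. The second nucleosome outside a block was matched in 26.0% (25.1% to 26.97%) of cases, close to the 25.9% seen after any unmatched neighbour. This was below the 28.7% of all GNP nucleosomes, and it was below the share of the arm on 5 of 6 arms, the exception being arm 4 with 33.3% against 28.1%. From the third nucleosome to position 10 the share was between 28.6% and 29.95%, with the intervals of some positions above that share of the whole map. With nucleosomes that belong to another block left out, positions 2 to 10 gave 25.1% to 27.4%, and the same share over all GNP nucleosomes outside blocks was 25.9%. In the whole set of flanking nucleosomes the share was therefore lower at the second nucleosome and similar or slightly higher from the third on.

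**Figure D5:**
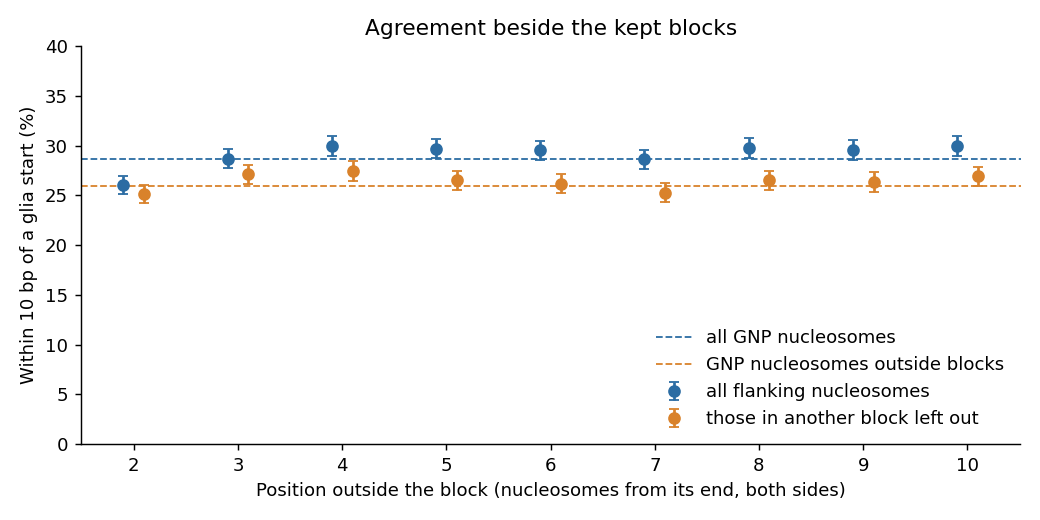
Share of GNP nucleosomes within 10 bp of a glia start (%) against their position outside a block, counted from the block's end on both sides, with 95% Wilson intervals. Blue points count all flanking nucleosomes and orange points leave out those in another block. Dashed lines give the 28.7% of all GNP nucleosomes (blue) and the 25.9% of those outside blocks (orange), and the points lie within a few percentage points of their line.

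Blocks were found on every arm. Their density was 35.02 per Mb over all arms (34.0 to 36.1, exact Poisson interval at the 95% level). It was highest on 2R with 39.5 per Mb (36.9 to 42.3), followed by 36.7 (34.5 to 39.0) on 3R, 35.7 (33.4 to 38.2) on 3L and 34.3 (31.9 to 36.8) on 2L. The lowest densities were 29.1 per Mb (26.9 to 31.5) on X and 27.2 (19.0 to 37.7) on arm 4. Neighbours in this order had overlapping intervals except 2L and X. The share of all nucleosomes matched within 10 bp had a smaller range, from 27.6% on X to 29.3% on 2R. On X, 3.10% (2.99% to 3.21%) of GNP nucleosomes lay in blocks, and on 2R 4.17% (4.04% to 4.30%).

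Blocks occurred along the whole length of the arms. Consecutive blocks were separated by a median of 79 nucleosomes (quartiles 33 and 166), or 18211 bp. The arms were divided into windows of 100 kb, of which 1194 held 200 GNP nucleosomes or more. Of these windows, 36 (3.02%) had no block, the median was 3 blocks and the highest number 11. The mean was 3.52 blocks per window and the variance 3.67. The most block nucleosomes were found in the window from 1100001 to 1200000 on 2R, with 57 in 11 blocks, followed by the windows 21600001 to 21700000 on X with 55 in 10 blocks and 21800001 to 21900000 on X with 54 in 11 blocks. In these windows 39.7%, 47.2% and 37.1% of GNP nucleosomes were matched. The first window held 356 nucleosomes in glia and 358 in GNP, the next 242 in glia and 250 in GNP, and the last 388 in each map.

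These 3 windows all lie toward the centromere, where the arms contain many repeats. After this was seen, the 1 Mb of called sequence closest to the centromere was compared with the rest on the 5 large arms. In it, 5.33% (5.00% to 5.68%) of GNP nucleosomes lay in blocks, against 3.64% (3.59% to 3.69%) in the rest. The 2 X windows lie inside this 1 Mb and prompted the comparison, whereas the 2R window lies outside it. With the 3 windows left out, the shares were 4.86% (4.54% to 5.21%) near the centromere and 3.63% (3.58% to 3.68%) in the rest. The share near the centromere was then higher on 4 of 5 arms and lower on X, with 2.27% near the centromere and 3.03% in the rest. It was 5.77% against 3.56% on 2L, 6.30% against 4.04% on 2R and 5.93% against 3.76% on 3L. On 3R the shares were nearly equal, with 3.84% near the centromere and 3.74% in the rest. Single nucleosomes were matched within 10 bp in 32.8% (32.1% to 33.5%) near the centromere and 28.5% (28.4% to 28.7%) in the rest. The density of GNP nucleosomes was 3340 per Mb near the centromere and 4388 per Mb in the rest, and its part in the difference was not tested.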

How the data were processed

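The series lists 12 samples, of which the 2 MNase-seq samples, 1 for each cell type, were analysed. The 10 ChIP-seq samples of 5 histone marks were not analysed here. According to the study's methods, the authors aligned reads to dm3 using Bowtie (0.12.7 in the submitters' processing notes) with at most 2 mismatches, kept uniquely mapped reads and called nucleosomes with GeneTrack, whose settings are not given in the sources used here. Each deposited file has 3 columns, the arm, start and end of each nucleosome in bp, and no counts, occupancy or score. End minus start was 146 bp throughout, and neighbouring starts were at least 147 bp apart in either map. Positions are printed as deposited, and all may be shifted by 1 bp because the base at which counting begins is unknown. The precision of each call is a separate matter and is also unknown.

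The closest glia start was found for each GNP start, with the lower start taken in a tie. Runs, spacing, gaps and flanks were computed in Python 3.11.15 with numpy 2.4.6, scipy 1.17.1 and pandas 2.3.3. The search for blocks was tested on simulated data. Named regions follow a rule: the 5 blocks with the most nucleosomes, the longest of each arm, the block of at least 6 nucleosomes with the smallest mean difference, and the 3 windows of 100 kb with the most block nucleosomes. The members and comparisons were chosen with earlier results of these data known. Alternatives were limits of 5 and 20 bp, runs of at least 3 or 6, neighbours at most 250 bp apart, and runs along the glia map. Genes were not assigned and no sequence is shown, because no genome or annotation of the dm3 build was used here.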

Additional observations from a re-analysis of the deposited data

How the results depend on the processing

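The number of blocks followed directly from the rule. It was 819 at a limit of 5 bp and 12219 at 20 bp, 12010 for runs of at least 3 nucleosomes and 561 for at least 6, and 2482 with neighbours at most 250 bp apart. Runs along the glia map gave 4314 blocks, the same within 1.5 times, and 3753 of the GNP blocks (89.1%) lay whole within a block of that map. That number equals the blocks with consecutive glia partners given above, and is not a separate check. The share of nucleosomes in blocks was 0.678%, 11.6%, 8.17%, 0.707% and 2.12% under the first 5 of these settings, and 3.88% of glia nucleosomes along the glia map. The median distance in blocks was 197 bp at a limit of 5 bp, 185 bp with neighbours at most 250 bp apart, where longer distances are left out by construction, and 194 or 195 bp otherwise. The 197 bp is nearer than the main 194 bp to the 200 bp of other GNP neighbours, which was not recomputed at 5 bp.

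The second nucleosome outside a block was matched in 17.4% at 5 bp, where 17.6% of all GNP nucleosomes were matched, in 34.0% at 20 bp (40.3% of all), in 27.4% for runs of at least 6 and in 27.5% along the glia map (29.3% of all glia nucleosomes). The share of block ends beside a gap was 11.8% at 5 bp, 14.1% at 20 bp, 15.3% with neighbours at most 250 bp apart and 14.1% along the glia map. At 5 bp it was close to the 11.8% of all GNP distances. The cause of these movements was not tested. Of 32 comparisons, 22 moved and 10 did not, where a number of blocks counted as moved beyond 1.5 times and any other value outside its interval. Leaving out flanking nucleosomes in other blocks, and the 3 windows near the centromere, was chosen after seeing the data. No paired analysis was possible because each cell type has 1 library and no test was run. The depth is unknown, and its part in these values was not tested.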

Other observations

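In 52 places neighbouring blocks were separated by a single nucleosome. Its difference from the closest glia start had a median of 42.5 bp, with a range from 11 to 161 bp, and was 20 bp or less in 16 of these places. The most nucleosomes in such a pair of blocks was 18, from 1164982 to 1168974 on 2R, where the separating nucleosome lay 11 bp lower in glia. This pair includes the longest block of the series. It was chosen after its values were seen.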
